A study of Mus musculus with 6 samples.

Results

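The 8 genes described here, Lrp2, Cubn, Amn, Lrpap1, Dab2, Myo6, Clcn5 and Ocrl, encode the receptors and the accessory proteins of endocytosis in the proximal tubule of the kidney; only Lrp2 and Cubn are receptors, and the other 6 serve them. They were taken by gene symbol from the 24346 symbols of each FPKM table, and all 8 were found and passed the minimum of a mean of 1 FPKM over the 6 libraries, as did 11737 genes in all. FPKM counts the fragments of a gene per kilobase of transcript, scaled to the number of mapped fragments. Levels of different genes can be set side by side only roughly, since the transcript lengths used are not known. A trend with length and GC content, described further on, also differed between libraries. The 6 libraries were poly(A) messenger RNA from kidney of mice that had lost 1 kidney by surgery. The 3 D-serine samples came from mice whose drinking water held 0.1% D-serine, and the 3 vehicle samples from mice given water without it. Both groups drank this water on a diet without serine for 1 week, then lost the kidney (UNX in the labels), and were killed 2 days after surgery. The sources used here give no strain, sex or age, and nothing in the labels ties each sample to a mouse of its own, so every p-value refers to the scatter among these 6 samples, which may be technical.

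The proximal tubule recovers filtered proteins, vitamins and hormones from the primary urine. Megalin, encoded by Lrp2, is a very large receptor of the LDL receptor family on the apical membrane. Cubilin, encoded by Cubn, binds albumin, transferrin and the intrinsic factor complex of cobalamin, has no membrane-spanning segment of its own and is held at the surface by amnionless, encoded by Amn. Lrpap1 encodes the chaperone that keeps megalin from binding ligands while it is made. Dab2 encodes the adaptor that links the receptor tails to clathrin, Myo6 the myosin that walks towards the minus end of actin filaments and moves endocytic vesicles inward, Clcn5 the chloride/proton exchanger of endosomes that is lost in Dent disease, and Ocrl the inositol phosphatase that is lost in Lowe syndrome. Several of these genes, such as Dab2, Myo6, Ocrl and Lrpap1, are also active in other kidney cells, and in whole tissue a smaller number of tubule cells and less RNA per cell cannot be told apart.

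The start regions of Lrp2, Cubn and Amn are printed because the levels of the 2 receptors followed nearly the same order over the 6 libraries, while Amn, the partner of cubilin, did not. RefSeq entries of build GRCm38.p6 matched all 8 genes with 10 start regions, each of 300 bases, from 250 before to 50 after the annotated start. Capitals mark matches on either strand to 6 short motifs: GTTAAT (HNF1 half-site), GTTAATNATTAAC (full HNF1 site), CAAAGTCCA (HNF4 site), GGGCGG (GC box), CCAAT (NF-Y site) and the TATA box, TATAAA. Every full HNF1 site also holds the half-site, so that their matches overlap. The Lrp2 region lies at chr2:69585980-69586279 on the minus strand, the Cubn region at chr2:13491827-13492126 on the minus strand and the Amn region at chr12:111270846-111271145 on the plus strand. RefSeq starts can differ from those of GENCODE M21, which places the genes further on. The Cubn region lies wholly upstream of Cubn as GENCODE M21 places it, 13276338 to 13491813.
Lrp2: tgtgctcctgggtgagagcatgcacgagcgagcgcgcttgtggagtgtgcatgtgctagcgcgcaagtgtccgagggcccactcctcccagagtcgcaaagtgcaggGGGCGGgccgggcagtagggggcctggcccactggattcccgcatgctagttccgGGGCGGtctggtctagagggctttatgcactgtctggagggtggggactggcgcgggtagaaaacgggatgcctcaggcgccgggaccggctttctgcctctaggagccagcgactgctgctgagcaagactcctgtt
Cubn: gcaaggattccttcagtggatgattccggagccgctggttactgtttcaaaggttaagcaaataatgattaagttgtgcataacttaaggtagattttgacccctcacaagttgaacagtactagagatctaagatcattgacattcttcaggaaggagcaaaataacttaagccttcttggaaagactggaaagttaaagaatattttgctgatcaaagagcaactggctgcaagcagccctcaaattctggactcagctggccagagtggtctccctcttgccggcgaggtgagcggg
Amn: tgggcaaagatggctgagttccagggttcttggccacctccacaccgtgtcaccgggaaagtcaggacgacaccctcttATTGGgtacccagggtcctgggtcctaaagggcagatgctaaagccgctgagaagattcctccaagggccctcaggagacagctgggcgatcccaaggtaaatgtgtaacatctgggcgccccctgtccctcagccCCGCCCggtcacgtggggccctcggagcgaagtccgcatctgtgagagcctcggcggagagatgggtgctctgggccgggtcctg
The Lrp2 region had a GC content of 65% with 20 CpG dinucleotides and held 2 GC boxes. The Cubn region had a GC content of 44.3% with 5 CpG dinucleotides and held none of the 6 motifs. The Amn region had a GC content of 62.3% with 15 CpG dinucleotides and held 1 GC box and 1 NF-Y site. Of 32851 start regions of the same length, 35.7% held a GC box, 37.4% an NF-Y site, 13.6% a TATA box, 7.1% the HNF1 half-site, 0.475% the HNF4 letters and 0.00913% the full HNF1 site. These are matches of letters only, and the libraries hold no measure of binding.

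The main comparison asked which of these transcripts differ with D-serine in the kidney 2 days after nephrectomy. Lrp2, Cubn and Clcn5 had the widest gaps between the group means, with D-serine means at 0.705, 0.685 and 0.568 of the vehicle means, but their groups overlapped. Myo6 and Dab2 had smaller gaps with no overlap, and Amn, Lrpap1 and Ocrl had groups that overlapped. In a fit over all 11737 tested genes (limma on log2(FPKM + 1), two-sided, Benjamini-Hochberg adjustment), 0 of the 8 genes passed an adjusted p of 0.05, where 0.0767% of all tested genes were called (0.00852% higher and 0.0682% lower). At an unadjusted p under 0.05 there were 2 of the 8, Myo6 and Clcn5, both lower with D-serine, against 27.7% of all tested genes. The D-serine libraries lay entirely below the vehicle libraries for 2 of the 8, Myo6 and Dab2, against 19.4% of all tested genes, and entirely above them for 0, against 16.5%. Counts of this size among 8 genes are near these backgrounds. The median log2 difference of the 8 genes was -0.31, with 6 lower and 2 higher, beside a median of -0.0078 over all tested genes, of which 51.1% were lower. The list's median stayed between -0.36 and -0.25 when 1 library at a time was left out.

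**Figure D1:**
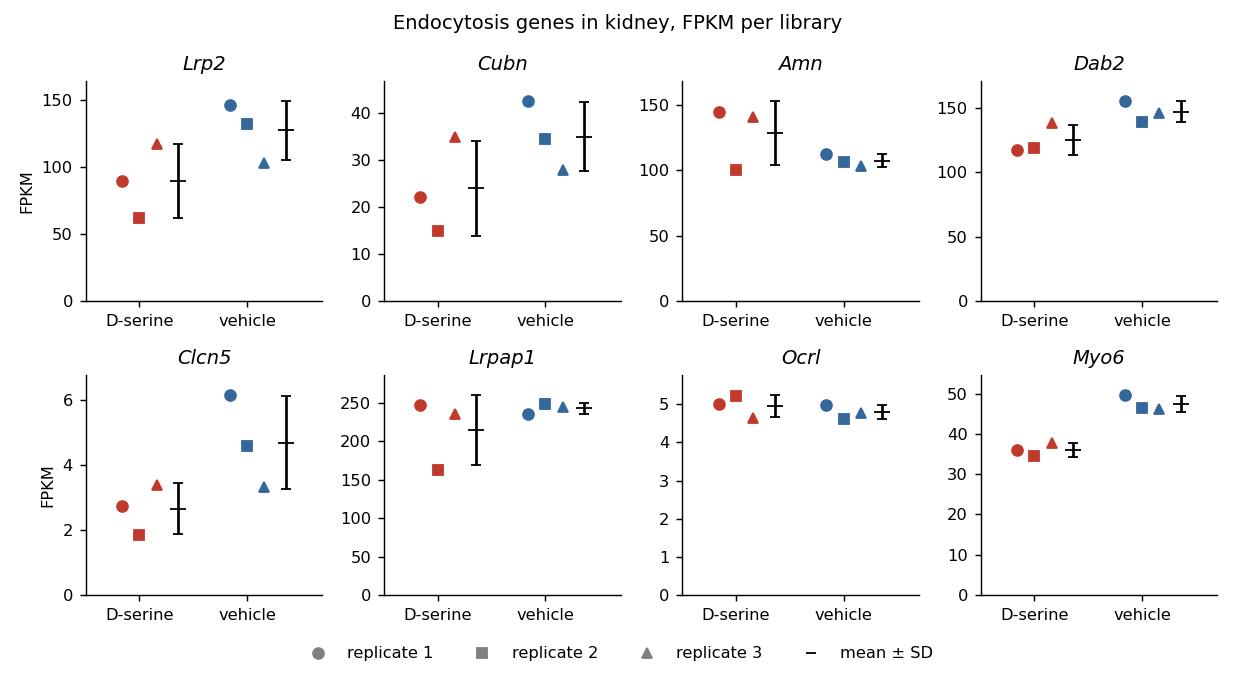
FPKM of the 8 genes in each library, with D-serine libraries in red and vehicle libraries in blue; symbols give the replicate number and black bars the mean ± SD of 3 libraries, and each axis starts at 0. Myo6 and Dab2 show no overlap between groups, while D-serine replicate 3 sits among the vehicle libraries for Lrp2, Cubn and Clcn5.

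Megalin comes first among the receptors. Lrp2 (chromosome 2, 69424340 to 69586065, minus strand, mm10, GENCODE M21) was at 89.7, 62.2 and 118 FPKM in D-serine libraries 1 to 3, against 146, 132 and 103 FPKM in vehicle libraries 1 to 3. D-serine replicate 3 lay above vehicle replicate 3, so the groups overlapped, and D-serine replicate 2 was the lowest of all. Lrp2 averaged 89.8 ± 27.7 FPKM with D-serine and 127 ± 21.96 FPKM with vehicle (SD, n = 3 each). The log2 difference was -0.53 ± 0.24 (SE), with a 95% interval of -1.09 to 0.023 and a limma adjusted p of 0.19. The difference was -0.29 without D-serine replicate 2 and -0.75 without D-serine replicate 3.

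Cubn (chromosome 2, 13276338 to 13491813, minus strand) stood at 22.1, 14.96 and 34.9 FPKM in D-serine libraries 1 to 3, against 42.6, 34.5 and 27.99 FPKM in vehicle libraries 1 to 3. As for Lrp2, vehicle replicate 1 was highest, D-serine replicate 2 lowest, and D-serine replicate 3 stood among the vehicle libraries. Its log2 difference was -0.59 ± 0.29 (SE), with a 95% interval of -1.27 to 0.095 and a limma adjusted p of 0.23. This value was -0.30 without D-serine replicate 2 and -0.89 without D-serine replicate 3. In the annotation, 368 of the 14935 exon bases of Cubn are shared with Gm13270 on the opposite strand, and no source used here gives the strand setting of the authors' counting.

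Amn (chromosome 12, 111271095 to 111276426, plus strand), which anchors cubilin, did not share this order. Its level was 144, 100 and 140 FPKM in D-serine libraries 1 to 3, against 112, 106 and 103 FPKM in vehicle libraries 1 to 3. D-serine replicates 1 and 3 stood above all vehicle libraries and D-serine replicate 2 below them. Amn averaged 128 ± 24.5 FPKM with D-serine and 107 ± 4.89 FPKM with vehicle (SD, n = 3 each), a log2 difference of 0.24 ± 0.15 (SE; 95% interval -0.11 to 0.59; limma adjusted p = 0.33). Without D-serine replicate 2 it was 0.41, and without D-serine replicate 1 it was 0.15.

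Lrpap1 (chromosome 5, 35091501 to 35105766, minus strand), the megalin chaperone, was the most abundant of the 8. It was at 247, 162 and 235 FPKM in D-serine libraries 1 to 3, against 235, 249 and 245 FPKM in vehicle libraries 1 to 3. Only D-serine replicate 2 stood apart from the other libraries, and without it the log2 difference was -0.012, against -0.20 ± 0.16 (SE) with all 6 (limma adjusted p = 0.44). Leaving out D-serine replicate 1 gave -0.31.

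Among the proteins that carry the receptors inward, Myo6 had the smallest p of the 8. Myo6 (chromosome 9, 80165031 to 80311729, plus strand) was at 35.99, 34.4 and 37.6 FPKM in D-serine libraries 1 to 3, against 49.7, 46.3 and 46.2 FPKM in vehicle libraries 1 to 3. The spread within each group was narrow and the groups were apart. Its log2 difference was -0.39 ± 0.087 (SE), with a 95% interval of -0.59 to -0.18, an unadjusted limma p of 0.0027 and an adjusted p of 0.072. By p it ranked 439th among the tested genes, of which 11.2% had a limma adjusted p under 0.1. Leaving out 1 library at a time kept the difference between -0.42 and -0.35, and removing the dependence on transcript length and GC content that is described further on took it to -0.21 (adjusted p = 0.15).

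Dab2 (chromosome 15, 6299788 to 6440712, plus strand), the clathrin adaptor, was at 118, 119 and 138 FPKM in D-serine libraries 1 to 3, against 155, 139 and 146 FPKM in vehicle libraries 1 to 3. The groups were apart by a narrow margin, 138.5 FPKM in D-serine replicate 3 against 139.1 FPKM in vehicle replicate 2. The log2 difference was -0.23 ± 0.10 (SE; 95% interval -0.47 to 0.0065; limma adjusted p = 0.19). In the annotation 211 of its 7342 exon bases are shared with Gm18888 on the opposite strand.

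Of the 2 endosomal proteins, Clcn5 had a wide gap and Ocrl hardly any. Clcn5 (chromosome X, 7153810 to 7319358, minus strand) was at 2.75, 1.84 and 3.39 FPKM in D-serine libraries 1 to 3, against 6.15, 4.59 and 3.31 FPKM in vehicle libraries 1 to 3. D-serine replicate 3 and vehicle replicate 3 nearly coincided, and the order of the 6 libraries was the same as for Lrp2. The log2 difference was -0.63 ± 0.23 (SE; 95% interval -1.16 to -0.092; limma adjusted p = 0.14), and at so low a level the pseudocount of 1 FPKM holds it down, with -0.81 at a pseudocount of 0.01 FPKM. Without vehicle replicate 1 it was -0.45. Ocrl (chromosome X, 47912387 to 47965868, plus strand) was at 5.01, 5.22 and 4.63 FPKM in D-serine libraries 1 to 3, against 4.98, 4.62 and 4.77 FPKM in vehicle libraries 1 to 3. These groups overlapped throughout, with a log2 difference of 0.040 ± 0.097 (SE; 95% interval -0.19 to 0.27; limma adjusted p = 0.81).

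**Figure D2:**
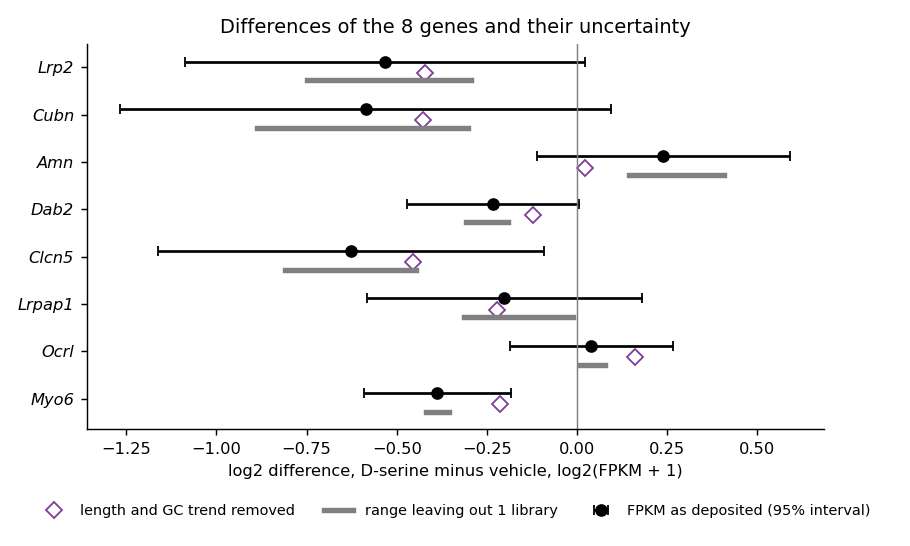
Log2 difference of each gene, D-serine minus vehicle, on the log2(FPKM + 1) scale: black points with 95% limma intervals, grey bars for the range over fits that leave out 1 of the 6 libraries, and open diamonds after adjustment for length and GC content. The intervals of Myo6 and Clcn5 stay below 0, those of the other 6 genes include 0, and the diamond of Amn falls to 0.022.

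The levels of the 8 genes covered a wide range. Per length, Lrpap1 averaged 215 FPKM with D-serine and 243 FPKM with vehicle, and Ocrl 4.95 FPKM with D-serine and 4.79 FPKM with vehicle. In D-serine libraries the means ran from Lrpap1 through Amn, Dab2, Lrp2, Myo6, Cubn and Ocrl to Clcn5, and in vehicle libraries from Lrpap1 through Dab2, Lrp2, Amn, Myo6 and Cubn to Ocrl and Clcn5. The ranges of Amn and Dab2, of Amn and Lrp2, and of Myo6 and Cubn overlapped with D-serine. With vehicle the ranges of Dab2 and Lrp2, of Lrp2 and Amn, and of Ocrl and Clcn5 overlapped. Even so, Dab2 stood above Lrp2 and Lrp2 above Amn in every vehicle library. In every D-serine library Amn stood above Lrp2 and Myo6 above Cubn. The order of Amn and Dab2 with D-serine, and of Ocrl and Clcn5 with vehicle, changed from library to library. At the estimated depth, the lowest Clcn5 value rested on about 110 fragments and the highest Lrp2 value on about 20000, so counting error is largest for Clcn5 and for Ocrl (about 190 to 230 fragments). The spread between libraries did not follow it, since the SE of the log2 difference was 0.097 for Ocrl and 0.29 for Cubn.

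Ratios within a library do not depend on scaling between libraries. Cubilin to amnionless, Cubn to Amn in FPKM, was 0.153, 0.150 and 0.249 in D-serine libraries 1 to 3, against 0.378, 0.325 and 0.272 in vehicle libraries 1 to 3. The D-serine ratios all lay below the vehicle ratios, with a log2 difference of -0.83 (exact permutation test, two-sided p = 0.10, the smallest that 3 against 3 can give; adjusted p = 0.47 over the 7 ratios compared). Once length and GC content were adjusted for, it was -0.45 and the groups overlapped (exact permutation p = 0.20). The ratio of Cubn to Lrp2 was 0.247, 0.241 and 0.297 in D-serine libraries and 0.291, 0.260 and 0.271 in vehicle libraries, with overlapping groups and a log2 difference of -0.054 (exact permutation p = 0.60). The ratio of Clcn5 to Lrp2 was 0.0307, 0.0296 and 0.0288 in D-serine libraries and 0.0420, 0.0346 and 0.0320 in vehicle libraries, so these groups were apart in FPKM. On the log2(FPKM + 1) scale its difference was -0.095 (exact permutation p = 0.50), and with a pseudocount of 0.01 FPKM it was -0.28 (exact permutation p = 0.10). The ratios of Lrpap1, Dab2, Ocrl and Myo6 to Lrp2 had overlapping groups, with log2 differences of 0.33, 0.30, 0.57 and 0.14 and exact permutation p from 0.20 to 0.70. Without D-serine replicate 2 the difference was 0.094 for Dab2 to Lrp2, 0.30 for Ocrl to Lrp2 and -0.062 for Myo6 to Lrp2, and without vehicle replicate 1 it was 0.20 for Lrpap1 to Lrp2. Leaving out 1 library at a time gave -0.14 to -0.0082 for Cubn to Lrp2 and -0.16 to -0.021 for Clcn5 to Lrp2.

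Over the 6 libraries, Lrp2 and Clcn5 had the same order from highest to lowest, and Cubn differed from it only in that D-serine replicate 3 and vehicle replicate 2 changed places. As a description over 6 libraries of 2 groups, which share their group means, their library totals and the length trend, Pearson's r of log2(FPKM + 1) with Lrp2 was 0.99 for Cubn and 0.96 for Clcn5. Cubn ranked 7th among 6070 other genes averaging 10 FPKM or more. Dab2 (r = 0.83), Myo6 (r = 0.81) and Lrpap1 (r = 0.78) ranked 1101st, 1261st and 1411th, and Amn (r = 0.14) ranked 3118th. Ocrl had an r of -0.68. The 5 genes closest to Lrp2 were Oxsm, a mitochondrial fatty acid synthesis enzyme, Tbc1d13, a Rab GTPase-activating protein, Tgds, Gbf1, an exchange factor for Arf GTPases of the Golgi, and Crbn, the substrate receptor cereblon, with r from 0.990 to 0.997. Those closest to Amn were Trappc2l, a vesicle tethering subunit, Snora33, Oxa1l, a mitochondrial insertase, Snora3 and the ribosomal protein gene Rps19, with r from 0.958 to 0.990. Snora33 and Snora3 are small RNA genes that were listed at 0 in D-serine replicate 2 and in all 3 vehicle libraries.

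**Figure D3:**
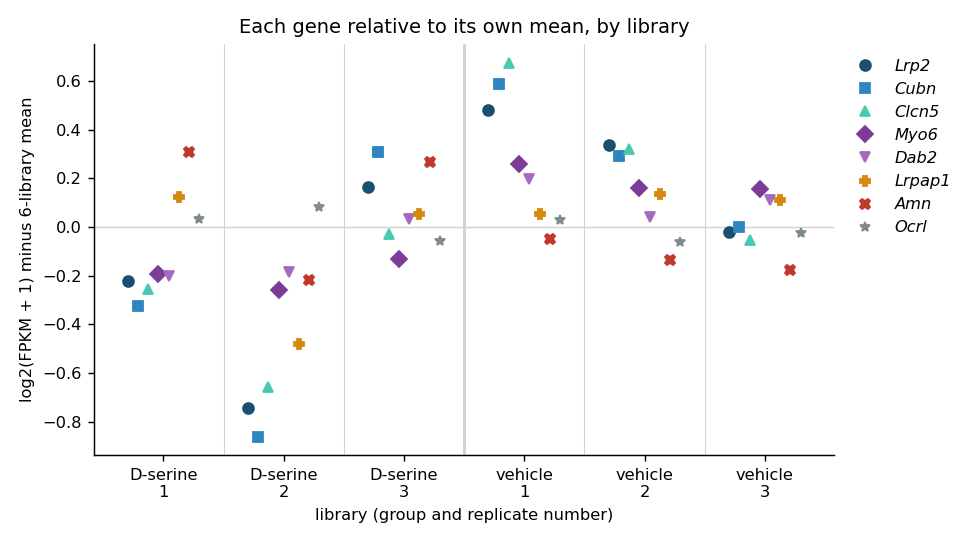
Log2(FPKM + 1) of each gene minus its own mean over the 6 libraries, by library, with D-serine libraries on the left. Lrp2, Cubn and Clcn5 are lowest in D-serine replicate 2 and highest in vehicle replicate 1, Amn is highest in D-serine replicates 1 and 3, and Ocrl stays near 0.

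Transcript length differed between the genes, and across the whole table the group difference varied with it. The longest annotated transcripts were 15460 bases for Lrp2, 11262 for Cubn, 8390 for Clcn5, 7927 for Myo6, 5253 for Ocrl, 4663 for Dab2, 2981 for Lrpap1 and 1701 for Amn. Among the 884 tested genes over 7 kb, to which 4 of the 8 belong, the median log2 difference was -0.13 and 74.3% were lower with D-serine. Among the 680 genes under 1 kb the median was 0.26 and 22.5% were lower. The median deviation of genes over 7 kb from their own 6-library mean was -0.092, -0.087 and -0.036 in D-serine libraries 1 to 3, against 0.13, 0.053 and 0.023 in vehicle libraries 1 to 3, with no overlap. The difference varied with GC content as well, with a median log2 difference of -0.11 for 2815 genes under 45% GC and 0.13 for 2550 genes over 55%, the class of Amn at 62.9%. With a loess trend on length and GC content removed from each library, the log2 difference was -0.42 for Lrp2, -0.43 for Cubn, -0.46 for Clcn5, -0.21 for Myo6, -0.12 for Dab2, -0.22 for Lrpap1, 0.022 for Amn and 0.16 for Ocrl. The signs did not change, the adjusted limma p ranged from 0.15 to 0.95, and the median of the 8 genes was -0.22. What lies behind the trend was not tested.

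**Figure D4:**
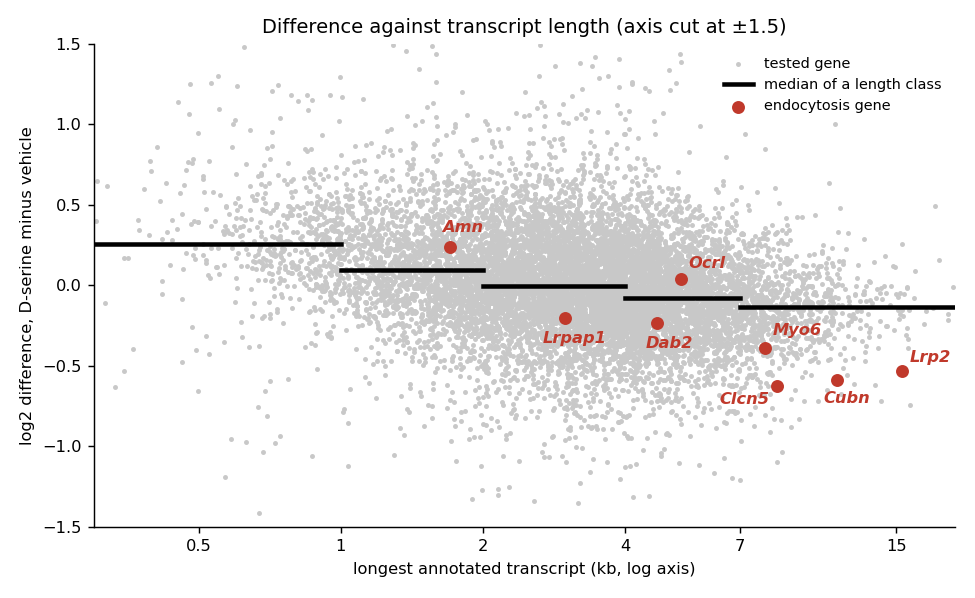
Log2 difference, D-serine minus vehicle, of 11309 tested genes with an annotated length (grey) against the longest annotated transcript in kb on a log axis; black lines give the median of each length class, red points the 8 endocytosis genes, and 123 genes beyond ±1.5 are not drawn. The class medians run from 0.26 under 1 kb to -0.13 over 7 kb, and Lrp2, Cubn, Clcn5 and Myo6 lie below the line of the longest class.

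Summed levels of several lists of nephron segment markers lay apart between the groups too, and their part in the values above was not tested. Each of the marker lists below had 0 genes listed at 0 in all 6 libraries, and 0 of their 109 tested genes passed an adjusted p of 0.05 in limma, while 31 passed in 1 or more of the 19 alternative fits and no gene in more than 8. For segments S1 and S2, where the receptors are most abundant, 15 of 15 markers were tested, 12 were lower, and their summed level was 8050 to 9281 FPKM with D-serine and 8534 to 9631 FPKM with vehicle. For S3, 10 of 12 were tested, all 10 were lower, and the sums were 4365 to 5439 FPKM with D-serine and 6817 to 7803 FPKM with vehicle. Sums were 592 to 849 FPKM with D-serine and 478 to 556 FPKM with vehicle for 11 intercalated cell markers, 678 to 1018 FPKM with D-serine and 460 to 615 FPKM with vehicle for 9 principal cell markers, and 4445 to 7172 FPKM with D-serine and 2116 to 3120 FPKM with vehicle for 8 distal convoluted and connecting tubule markers. Most of that last sum was S100g, which averaged 5002 FPKM with D-serine and 2098 FPKM with vehicle. The median log2 difference of those 8 markers was 0.23. The D-serine libraries lay above all vehicle libraries for 3 of them, against 16.5% of all tested genes. Injury markers (10 genes) summed to 811 to 1113 FPKM with D-serine and 625 to 725 FPKM with vehicle. Only Lcn2, Spp1, Clu, Krt18 and Krt8, 5 of the 10, reached the mean of 1 FPKM needed for testing. Cell division genes (12 genes) summed to 95.9 to 328 FPKM with D-serine and 18.7 to 26.7 FPKM with vehicle. Groups overlapped for the thick ascending limb (1042 to 1615 FPKM with D-serine and 1587 to 1823 FPKM with vehicle) and podocytes (35.2 to 41.6 FPKM with D-serine and 15.3 to 61.2 FPKM with vehicle). They also overlapped for endothelium (45.8 to 68.2 FPKM with D-serine and 31.8 to 56.4 FPKM with vehicle) and leukocytes (37.1 to 65.4 FPKM with D-serine and 30.1 to 54.8 FPKM with vehicle). The sums of fibroblast and smooth muscle markers did not overlap, at 39.6 to 75.0 FPKM with D-serine and 25.2 to 35.3 FPKM with vehicle. All 8 tested markers of this list were higher. The D-serine libraries lay above all vehicle libraries for only 3 of the 8, against 16.5% of all tested genes.

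The groups of Lrp2 and Cubn, which overlapped in FPKM, also overlapped when set against the S1 and S2 markers of the same library. Lrp2 minus the mean log2(FPKM + 1) of the 15 markers was 0.069, -0.43 and -0.11 in D-serine libraries 1 to 3, against 0.085, 0.69 and -0.29 in vehicle libraries 1 to 3. For Cubn it was -1.90, -2.42 and -1.83 in D-serine libraries, against -1.67, -1.22 and -2.14 in vehicle libraries. The mean difference in this measure was -0.32 for Lrp2 and -0.37 for Cubn, where the log2 differences without the markers were -0.53 and -0.59. Groups overlapped in this measure for all 8 genes, with mean differences from -0.41 for Clcn5 to 0.45 for Amn. The marker mean itself varied within groups, at 6.43, 6.42 and 7.0 in D-serine libraries and 7.12, 6.37 and 7.0 in vehicle libraries. The mean of the 10 S3 markers separated the groups by itself, at 5.99, 6.16 and 6.82 in D-serine libraries and 7.27, 7.11 and 7.02 in vehicle libraries, so levels set against it are not given.

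Other genes of the endocytic route were described from 8 lists with 156 distinct tested genes. Of these 108 were lower and 48 higher, with a median log2 difference of -0.12, and 0 passed an adjusted p of 0.05 in limma. At an unadjusted p under 0.05 there were 44 of the 156, near the 27.7% of all tested genes. Genes named below had the smallest p of their list. Several had a limma adjusted p under 0.1, as did 11.2% of all tested genes. The D-serine libraries lay below all vehicle libraries for 45 and above them for 14, where 19.4% and 16.5% of all tested genes did so. List medians given below depended on single libraries. Without D-serine replicate 2 the median was -0.14 for endosomal ion transport, -0.056 for clathrin coat and adaptors and -0.054 for Rab GTPases and retromer. Without D-serine replicate 1 it was -0.086 for transcription factors and -0.092 for brush border myosins, without D-serine replicate 3 it was -0.20 for vitamin carriers, and without vehicle replicate 1 it was -0.055 for dynamins and OCRL partners.

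Among 18 tested genes of the LDL receptor family and other scavenger receptors, 13 were lower and 5 higher (median log2 difference -0.27), and the groups were apart for 8 of the lower and 1 of the higher, against 19.4% and 16.5% of all tested genes. Cd36, a fatty acid and lipoprotein receptor, averaged 149 ± 35.3 FPKM with D-serine and 272 ± 35.6 FPKM with vehicle (SD, n = 3 each; limma adjusted p = 0.069). Sorl1, a sorting receptor, averaged 3.10 ± 0.473 FPKM with D-serine and 5.50 ± 1.37 FPKM with vehicle, and Ager, the receptor for glycated proteins, 2.36 ± 0.676 FPKM with D-serine and 0.983 ± 0.0557 FPKM with vehicle. Folr1, the folate receptor of the tubule, and Sepp1, the selenium carrier that megalin takes up, led the list of vitamin carriers and enzymes (15 tested, 10 lower, median -0.12). Folr1 averaged 196 ± 28.3 FPKM with D-serine and 258 ± 20.8 FPKM with vehicle, and Sepp1 1089 ± 250 FPKM with D-serine and 1570 ± 130 FPKM with vehicle. Gpx3, the secreted glutathione peroxidase, averaged 18089 ± 857 FPKM with D-serine and 15073 ± 2118 FPKM with vehicle (log2 difference 0.27). Quantile normalization gives genes of the same rank the same value, so the 0 it gave for Gpx3 reflects rank and not the size of the difference.

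The clathrin coat and adaptor list (21 tested, 13 lower, median -0.12) held genes on both sides. Cltc, the clathrin heavy chain, averaged 36.6 ± 5.49 FPKM with D-serine and 49.8 ± 3.02 FPKM with vehicle (limma adjusted p = 0.098), and Gak, which helps to uncoat vesicles, 18.5 ± 3.81 FPKM with D-serine and 24.9 ± 2.23 FPKM with vehicle. Ap2s1, the small subunit of the AP2 adaptor, averaged 203 ± 20.5 FPKM with D-serine and 144 ± 12.6 FPKM with vehicle (adjusted p = 0.074). Cltc has a long transcript (6519 bases) and Ap2s1 a short one (1054 bases), and once length and GC content were adjusted for, their log2 differences were -0.28 and 0.29, against -0.44 and 0.49 before. In the list of dynamins, phosphoinositide enzymes and OCRL partners (20 tested, 11 lower, median -0.099), Snx9, which bends membranes at clathrin pits, averaged 23.6 ± 5.72 FPKM with D-serine and 38.9 ± 1.56 FPKM with vehicle. Fig4, a phosphoinositide phosphatase, averaged 6.66 ± 0.849 FPKM with D-serine and 8.76 ± 0.399 FPKM with vehicle, and Fam109a, which binds OCRL, 13.4 ± 2.74 FPKM with D-serine and 9.34 ± 0.730 FPKM with vehicle.

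In the list of endosomal Rab GTPases, sorting nexins and retromer, 26 of 36 tested genes were lower (median -0.12). Vps35, the core of retromer, averaged 34.0 ± 7.99 FPKM with D-serine and 49.4 ± 2.44 FPKM with vehicle, and Snx5, its partner, 38.5 ± 4.39 FPKM with D-serine and 50.2 ± 2.52 FPKM with vehicle. Ehd3, a protein of recycling endosomes, averaged 3.57 ± 0.539 FPKM with D-serine and 1.74 ± 0.323 FPKM with vehicle (limma adjusted p = 0.066). In the list of endosomal ion transport, 15 of 18 tested genes were lower (median -0.25), and the groups were apart for 7 of the 18 in that direction, against 19.4% of all tested genes. Clcn3, an exchanger of the same family as Clcn5, was at 24.99 ± 2.36 FPKM with D-serine and 37.1 ± 1.80 FPKM with vehicle (log2 difference -0.55, adjusted p = 0.059), and passed in 5 of 19 alternative fits. Atp6v0c, the proton-carrying ring subunit of the V-ATPase, was listed at 94.5 FPKM with D-serine and 236 FPKM with vehicle, but Atp6v0c-ps2, a pseudogene copy by its name, was listed at 666 FPKM with D-serine and 436 FPKM with vehicle. Their sum was 760 FPKM with D-serine and 673 FPKM with vehicle, so the value of Atp6v0c alone is uncertain.

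The list of brush border myosins and actin linkers, to which Myo6 is related, had 13 of 17 tested genes lower (median -0.060). Myo5b, a motor of recycling vesicles, averaged 13.04 ± 2.27 FPKM with D-serine and 18.6 ± 1.15 FPKM with vehicle, and Vil1, the microvillus protein villin, 57.8 ± 8.03 FPKM with D-serine and 77.9 ± 4.37 FPKM with vehicle. Optn, a Myo6 partner, averaged 6.17 ± 0.565 FPKM with D-serine and 4.90 ± 0.639 FPKM with vehicle with overlapping groups. Among 13 tested transcription factors of the proximal tubule, 9 were lower (median -0.21). Hnf4a, which drives proximal tubule maturation, averaged 137 ± 8.67 FPKM with D-serine and 180 ± 12.98 FPKM with vehicle (log2 difference -0.39, limma adjusted p = 0.080), Ppara, the fatty acid sensor, 11.5 ± 1.17 FPKM with D-serine and 19.8 ± 4.25 FPKM with vehicle, and Rxra, its dimer partner, 19.7 ± 3.96 FPKM with D-serine and 26.5 ± 2.12 FPKM with vehicle.

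**Figure D5:**
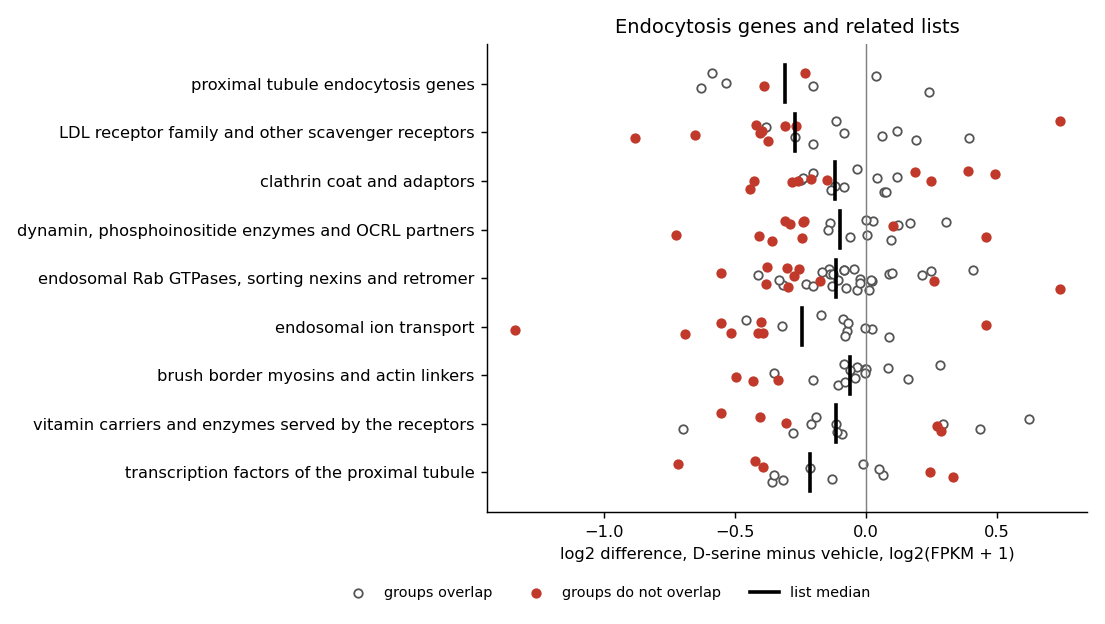
Log2 difference, D-serine minus vehicle, of each tested gene of the 8 endocytosis genes and of 8 related lists; filled points mark genes whose groups do not overlap, open points those that do, and black bars the median of a list. The medians lie between -0.31 for the endocytosis genes and -0.060 for brush border myosins, and 0 of these genes passed an adjusted p of 0.05.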

How the data were processed

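The 6 kidney libraries (3 D-serine, 3 vehicle) were prepared, per the labels' protocols, from TRIzol RNA by the TruSeq stranded mRNA method. The authors deposited 1 table of FPKM per sample. The submitters' processing notes name TopHat2 2.0.13, Bowtie2 2.2.3, SAMtools 0.1.19 and Cufflinks 2.2.1 with build mm10. No source used here gives the annotation or strand setting. The spacing of low values gave a relative depth of 0.836 to 1, or roughly 7220000 to 8630000 mapped fragments per library. This estimate searched only preset windows of ratios and totals. It also takes low values as single fragments on the annotated transcript, so the fragment numbers given above are rough.

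Tables were joined by symbol. The 11737 genes averaging 1 FPKM or more were tested with limma 3.58.1 in R 4.3.3 (mean-variance trend) on log2(FPKM + 1), with a two-sided Benjamini-Hochberg threshold of 0.05. FPKM are not counts, so no count model was used. Ratios had an exact permutation test. On simulated tables of 11737 genes, limma recovered 32.5% of changes of 1.5-fold and 81% of 2-fold. The changes were placed in 200 genes at levels above those of Clcn5 and Ocrl, with noise independent between genes. Shifts shared by the genes of a library were not simulated, so these shares need not hold for the real tables. Lengths and GC content came from GENCODE M21 on mm10 for 96.4% of tested genes.

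Members and gene lists were chosen with earlier results of these data known. Named were the 8 genes, the 3 genes with the smallest p of each related list, and the 5 genes most like Lrp2 and Amn; 1 gene under this rule is not reported here. Alternatives covered pseudocounts, filters, scalings, the trend, library weights, a replicate block, small RNA genes, the length and GC trend, and leaving out each library.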

Additional observations from a re-analysis of the deposited data

How the results depend on the processing

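None of the 8 genes passed in any of the 19 alternative fits, or 18 for Clcn5 and Ocrl, which a minimum of 5 FPKM leaves out, and no sign changed. Over these fits the lowest adjusted limma p was 0.057, for Myo6 with library weights. The number of genes called over the whole table, 9, moved to 171 and 221 with pseudocounts of 0.1 and 0.01 FPKM, 132 with a minimum of 5 FPKM, 83 with a fixed sum, 269 with library weights and 333 without small RNA genes. Leaving out 1 library gave 2 to 437, with 24, 10 and 437 without D-serine replicates 1, 2 and 3, and 4, 3 and 2 without vehicle replicates 1, 2 and 3. The number of genes of the 8 related lists called, 0, became 1, 2, 2, 1, 2 and 4 in those 6 settings in the same order, and 0 to 3 when 1 library was left out, with 3 without D-serine replicate 3. Without small RNA genes those called were Atp6v0c, Cd36, Clcn3 and Ehd3. The ratio of Myo6 to Lrp2 (log2 difference 0.14) was -0.062 when D-serine replicate 2 was left out and 0.33 when replicate 3 was. With the replicate block the number of genes called was 2, and 1 with the length and GC trend also removed, a fit added after seeing the data. The deviations of same-numbered libraries had correlations of -0.070, 0.0031 and 0.067, within the -0.082 to 0.083 of differently numbered ones. These values show no sign that the numbers pair the samples, but so few libraries cannot exclude it. The cause of these shifts was not tested. Counting error is largest for Clcn5 and Ocrl.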
